A study of Mus musculus with 146 samples.

Results

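The response of the female mouse amygdala to chronic intermittent ethanol (CIE) was described across all genes. The samples were those titled as female amygdala with either vapor or control exposure, 10 CIE and 8 Air, and they made up 18 of the 146 samples of the series. The amygdala is a group of nuclei in the temporal lobe that handles fear, stress and the negative affect of withdrawal. CIE is a vapor inhalation model of alcohol dependence in which blood ethanol rises and falls in repeated cycles.

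All mice were C57BL/6J, a strain that drinks ethanol readily, and all of these were female. The ages were not given. Both groups had 2 h sessions with a choice between 15% ethanol and water, 5 days per week for 4 weeks, before any vapor exposure, so the Air mice were ethanol drinkers and not ethanol-naive animals. Each CIE mouse next received ethanol at 1.75 g/kg together with pyrazole at 68.1 mg/kg, which blocks alcohol dehydrogenase, and stayed for 4 days in chambers with vapor on for 16 h and off for 8 h. Air mice received the same pyrazole dose in saline and air in place of vapor. After 72 h of rest both groups drank again for 5 days, and the sequence was run for 4 cycles. A last exposure of 4 days followed, and tissue was taken 1 week later, so the values describe a late abstinence time point and not intoxication. RNA came from micropunches, small cores of tissue that hold every cell type of the region, and TagSeq, which sequences a tag from the 3′ end of each mRNA, gave 100-base reads.

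The sex label held against defining transcripts. Xist, the RNA of the inactive X chromosome that marks female cells, was at 210.4 to 271 CPM (counts scaled to the reads on genes) in CIE and 203 to 254 in Air samples. Ddx3y, a Y-linked helicase, stayed between 0 and 2.94 CPM over all 18. Snap25, a synaptic protein of neurons, was at 1663 to 1985 CPM in CIE and 1715 to 1989.9 CPM in Air. The list of 10 central amygdala markers was present at a summed level of 973 to 1392 CPM in CIE and 960.2 to 1381 CPM in Air, with Sst at a mean of 797 CPM as its most abundant gene, and 1 of its members was at 0 in every sample. These levels do not test the region label, since Sst is found across the forebrain, and striatal markers summed higher, to 2472 CPM at the CIE median and 2686 CPM at the Air median. Depth, as reads on genes, was 1523633 to 2619292 in CIE samples and 1578896 to 3375307 in Air samples. Neither this depth nor the number of genes with a count, the share of reads off genes, of spike-in RNA or of mitochondrial RNA differed between the groups, with exact two-sided permutation p between 0.619 and 0.946 over 5 measures.

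Some samples stood apart from the others. Alb, the albumin gene of liver, or Alas2, the heme synthesis enzyme of red cell precursors, was above 50 CPM in 4 of 10 CIE and 4 of 8 Air samples. These transcripts belong to liver and blood and not to brain, and values within or outside the samples that carry them are given for the class I genes and for several lists.

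Class I molecules of the major histocompatibility complex (MHC) display peptides from inside a cell to T cells. The proteasome cuts the peptides, a transporter moves them into the endoplasmic reticulum, an aminopeptidase trims them, and a heavy chain with its light chain beta-2-microglobulin carries them to the surface. Interferons raise this whole pathway, and in brain it is found in microglia, endothelium and, at lower levels, neurons, where class I molecules also take part in synapse remodelling.

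No gene passed the test between CIE and Air in the female amygdala. Of 12335 genes tested with edgeR's quasi-likelihood test, 0 had a Benjamini-Hochberg adjusted p under 0.05 (0%), while 519 had an unadjusted p under 0.05 (4.21%), 268 of them higher in CIE (2.17%) and 251 lower (2.03%). DESeq2 also gave 0 genes at adjusted p under 0.05 with 680 of 27398 unadjusted, limma-voom 0 with 548 of 12335, and limma on the deposited voom values 0 with 675 of 14728. No gene had groups that did not overlap (0 of 12335, 0%). The median log2 fold change over all genes tested was 0.0038, with 6358 genes higher and 5977 lower. The common coefficient of biological variation was 0.134. The 5 genes of smallest p with higher means in CIE were Tap1, H2-K1, H2-D1, Gbp7 and B2m, of which all but Gbp7 belong to the class I pathway.

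**Figure D1:**
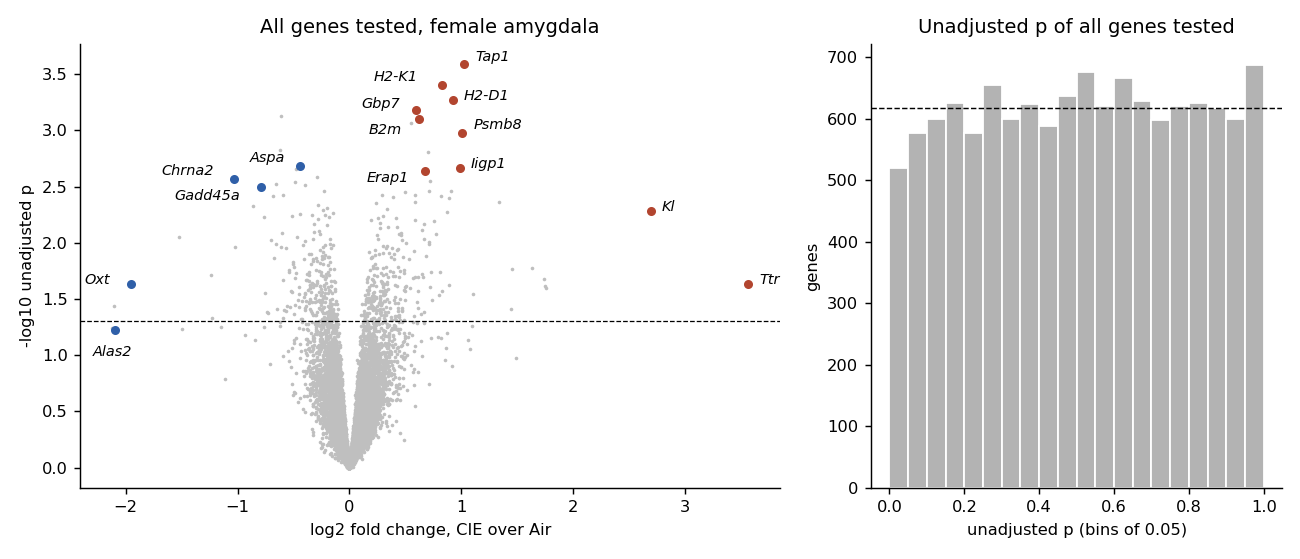
Left, each of 12335 genes tested, with the log2 fold change (CIE over Air) across and −log10 of the unadjusted edgeR p up; colored points are named genes, red higher and blue lower in CIE, and the dashed line marks p = 0.05. Right, the number of genes in each bin of unadjusted p, with the dashed line at the even share; the lowest bin holds 519 genes and lies under that line.

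The promoters of some class I genes whose values are given next are shown because these genes lay together at the top of the list and are known interferon targets. They are 300-base windows from RefSeq on GRCm38.p6, written 5′ to 3′ on the strand of the gene, and capitals mark a match on either strand to GAAA and GAAA with any 2 bases between them (the longer interferon motif), to GAANNGAAA (the shorter) or to TTCNNNGAA (the STAT motif). In the H2-K1 and H2-D1 windows GAANNGAAA appears as its reverse complement. H2-K1 had 2 windows, and only the window at the coordinates given here is shown. H2-K1 is at chr17:34000298-34000597 on the minus strand, H2-D1 at chr17:35262844-35263143, B2m at chr2:122147437-122147736 and Psmb8 at chr17:34197945-34198244, these 3 on the plus strand. By the Ensembl coordinates given with each gene, the H2-D1 and Psmb8 windows lie inside the gene, downstream of its outermost start, because RefSeq places the start of the transcript farther in.
H2-K1: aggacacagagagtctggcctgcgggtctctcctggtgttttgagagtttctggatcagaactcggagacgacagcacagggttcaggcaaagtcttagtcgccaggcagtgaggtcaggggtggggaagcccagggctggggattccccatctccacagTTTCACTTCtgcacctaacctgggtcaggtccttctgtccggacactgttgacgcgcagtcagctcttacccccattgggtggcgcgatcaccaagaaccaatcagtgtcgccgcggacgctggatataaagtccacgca
H2-D1: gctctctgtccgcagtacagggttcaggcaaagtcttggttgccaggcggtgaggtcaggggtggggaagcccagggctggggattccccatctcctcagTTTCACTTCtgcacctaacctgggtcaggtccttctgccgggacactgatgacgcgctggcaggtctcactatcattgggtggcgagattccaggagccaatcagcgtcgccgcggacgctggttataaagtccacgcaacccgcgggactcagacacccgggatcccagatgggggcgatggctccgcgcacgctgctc
B2m: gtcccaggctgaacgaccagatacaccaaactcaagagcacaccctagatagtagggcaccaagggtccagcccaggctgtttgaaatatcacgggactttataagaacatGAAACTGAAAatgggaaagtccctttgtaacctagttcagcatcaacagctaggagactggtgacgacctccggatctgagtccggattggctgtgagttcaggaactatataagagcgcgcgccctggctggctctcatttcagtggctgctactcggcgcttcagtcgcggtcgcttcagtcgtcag
Psmb8: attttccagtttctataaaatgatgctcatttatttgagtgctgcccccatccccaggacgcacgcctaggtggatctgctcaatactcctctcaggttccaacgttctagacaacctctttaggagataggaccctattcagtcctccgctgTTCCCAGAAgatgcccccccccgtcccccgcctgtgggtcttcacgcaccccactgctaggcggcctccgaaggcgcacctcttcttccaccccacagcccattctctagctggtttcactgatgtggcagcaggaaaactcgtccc

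Among 32851 RefSeq promoters, 3.44% held the longer interferon motif, 7.52% GAANNGAAA and 8.3% TTCNNNGAA, and 17.4% held at least 1 of them. Of the 13 tested genes of the class I list, 7 held at least 1 of these motifs. Of 21 promoters counted for the 25 tested genes of the interferon list, 14 did. Genes on chromosome 18, Iigp1 among them, were left out of the list counts, which used 1 window per gene. The shares over all promoters were taken without that exclusion and over every window, so the figures are not fully alike. The Tap1 window held none, and the Erap1 window, which is not shown, held the longer interferon motif. A match is a description of the letters and not a site or a cause.

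Heavy and light chains had higher means in CIE. H2-K1 (ENSMUSG00000061232.16, chr17:33996017-34000347 on the minus strand), a classical class I heavy chain, had lowest, median and highest values of 27.8, 32.7 and 59.5 CPM in Air and 26.1, 63.5 and 90.1 CPM in CIE. CIE mouse 22 was the lowest sample of all, 6 CIE samples lay above every Air sample, and the highest Air sample was mouse 26. For H2-K1 the log2 fold change was 0.83 ± 0.19 (SE), with p = 0.000390 unadjusted and an edgeR adjusted p of 1.00, and 9 of 10 CIE samples were above the Air median. H2-D1 (ENSMUSG00000073411.12, chr17:35262730-35267499 on the plus strand), the other classical heavy chain of this strain, ran over 28.9, 35.3 and 70.9 CPM in Air and 41.0, 72.0 and 125 CPM in CIE. All 10 CIE samples were above the Air median and 6 above the highest Air sample, again mouse 26. The log2 fold change of H2-D1 was 0.93 ± 0.22 (SE), with p = 0.000533 unadjusted. B2m (ENSMUSG00000060802.8, chr2:122147686-122153083 on the plus strand), the shared light chain, ran over 74.8, 83.0 and 125 CPM in Air and 86.9, 130.1 and 200.3 CPM in CIE. Here too all 10 CIE samples exceeded the Air median, 6 exceeded every Air sample, while the remaining 4 CIE samples, mice 22, 23, 25 and 33, lay below Air mouse 26. The log2 fold change of B2m was 0.63 ± 0.16 (SE) with p = 0.000797 unadjusted. H2-K1 and H2-D1 are close copies of each other and of further class I genes, so the division of reads among them is uncertain, and H2-Q10, described with the Alb samples, is among these copies.

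The genes that supply peptides showed the same direction. Tap1 (ENSMUSG00000037321.17, chr17:34187553-34197225 on the plus strand) encodes a subunit of the peptide transporter and had the smallest p of all genes. Its lowest, median and highest values were 2.67, 3.59 and 8.23 CPM in Air and 3.94, 7.92 and 12.2 CPM in CIE. Without mouse 26 the Air samples were tightly grouped, and all 10 CIE samples were above the Air median. The log2 fold change was 1.03 ± 0.24 (SE), with p = 0.000257 unadjusted and an edgeR adjusted p of 1.00. Psmb8 (ENSMUSG00000024338.15, chr17:34197721-34201454 on the plus strand), a catalytic subunit of the immunoproteasome, ran over 0.535, 3.19 and 6.33 CPM in Air and 3.94, 5.75 and 10.8 CPM in CIE, a low level at which counting error is large. All CIE samples were above the Air median and 5 were above every Air sample. Its log2 fold change was 1.01 ± 0.27 (SE) with p = 0.00105 unadjusted. Tap1 and Psmb8, with Air medians of 3.59 and 3.19 CPM, lay near the filter on low counts. They could pass it mainly through the CIE samples, which favors a higher direction in advance. Erap1 (ENSMUSG00000021583.7, chr13:74639568-74693201 on the plus strand), the trimming aminopeptidase, had a log2 fold change of 0.68 ± 0.20 (SE) with p = 0.00230 unadjusted and 10 of 10 CIE samples above the Air median. Tap1, Psmb8 and Erap1 share exon bases with genes on the opposite strand, and because the strand setting of the counting was not stated, reads from either partner cannot be told apart.

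**Figure D2:**
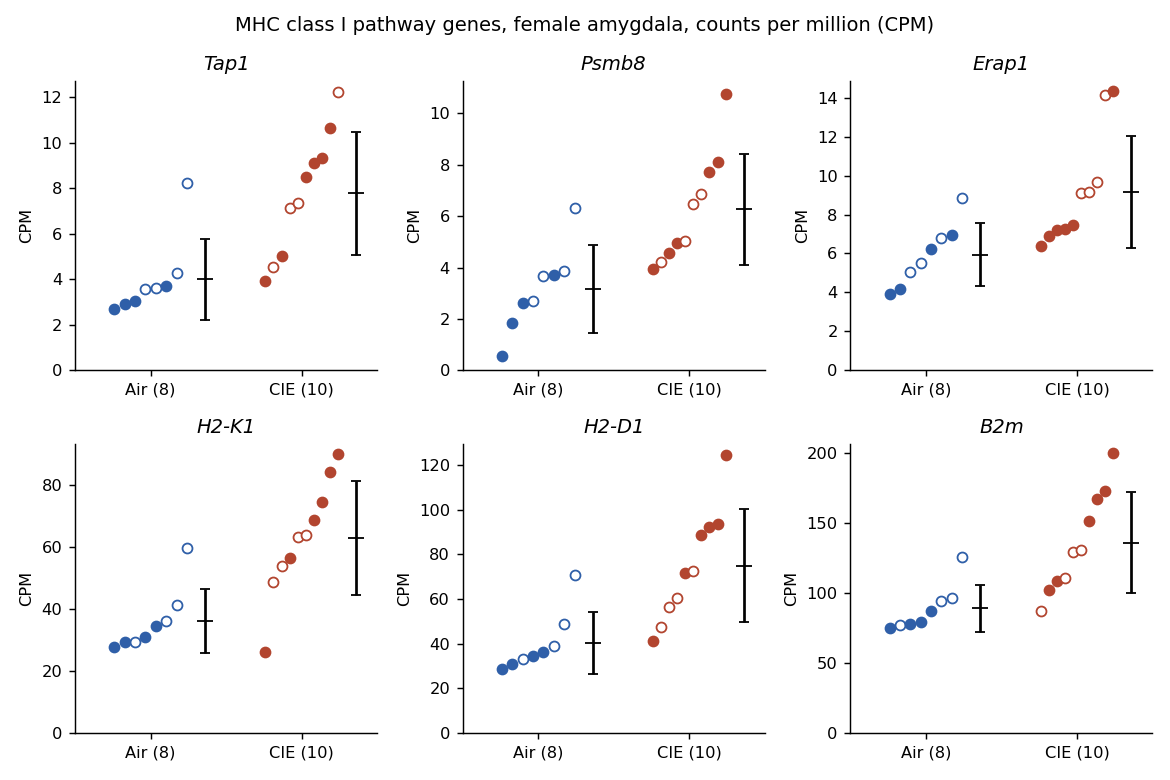
CPM of each sample for Tap1, Psmb8, Erap1, H2-K1, H2-D1 and B2m, 8 Air samples in blue and 10 CIE samples in red, in order of value within each group. Open circles are samples with Alb or Alas2 above 50 CPM, and bars give the mean and SD. In all panels the groups overlap, and the highest Air point is mouse 26, an open circle.

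The gene lists were written with earlier results of these data known, so their counts are a description and not a test. Seen as a list, 12 of the 13 tested class I pathway genes (22 were listed) had higher and 1 had lower means in CIE, against 6358 higher of 12335 over all genes. Of these 13, 6 were at unadjusted p under 0.05, all higher, beside 4.21% of all genes. Tap1 and Psmb8 are among the 13 and could pass the filter on low counts mainly through the CIE samples. The median log2 fold change of the list was 0.14, against 0.0038 over all genes. It was 0.50 with no filter on low counts and 0.51 with DESeq2, both of which take in more of the 22 listed genes, and 0.073 with a minimum count of 30. H2-K1, H2-D1, B2m, Tap1, Psmb8 and Erap1 lay between 0.63 and 1.03. The list summed to 992, 1052 and 1128 CPM (lowest, median, highest) in Air and to 1019, 1211 and 1424 CPM in CIE. In bulk tissue, more or fewer cells of a type and more or less RNA per cell cannot be told apart.

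Other interferon-response genes pointed the same way with exceptions. Of the 52 listed, 25 were tested, 19 with higher and 6 with lower means in CIE. At unadjusted p under 0.05 there were 8 higher and 1 lower (9 of 25, beside 4.21% of all genes), and the list median was 0.27. The median was 0.34 outside and 0.10 within the samples with Alb or Alas2 above 50 CPM, and 0.13 without the 4 samples with Ttr above 1000 CPM. With a minimum count of 30 it was 0.079. Gbp7 (ENSMUSG00000040253.15), an interferon-induced GTPase, had 7.43, 10.2 and 12.7 CPM in Air and 10.9, 13.7 and 21.5 CPM in CIE. The groups overlapped, with 7 CIE samples above every Air sample and no CIE sample below the Air median. The log2 fold change was 0.59 ± 0.15 (SE) with p = 0.000658 unadjusted. Iigp1 (ENSMUSG00000054072.12), an immunity-related GTPase, had 2.48, 4.56 and 7.41 CPM in Air and 4.58, 8.35 and 15.8 CPM in CIE, and again 7 CIE samples exceeded every Air sample. Its log2 fold change was 0.99 ± 0.29 (SE) with p = 0.00215. Trim30a, an interferon-induced regulator of innate signaling, stood at 0.71 ± 0.22 (SE), and Irf9, the DNA-binding subunit of the complex that type I interferon activates, at 0.47 ± 0.16 (SE), with p = 0.00344 and 0.00816. The lower gene was Rsad2, an antiviral enzyme, which followed the samples with Alas2 and is described with them. The innate inflammatory signaling list had 14 of 19 tested genes higher (73.7%, beside 51.5% of all genes). At unadjusted edgeR p under 0.05 there were 2 (10.5%, beside 4.21% of all genes). The list median was 0.12, and it was 0.20 outside and -0.0066 within the samples with liver or blood transcripts.

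The class I values were set against the samples with liver or blood transcripts. In the 6 CIE and 4 Air samples with Alb and Alas2 under 50 CPM, the log2 fold changes were 1.42 for H2-D1, 1.16 for H2-K1, 0.94 for B2m, 1.36 for Tap1 and 1.59 for Psmb8. In the 4 CIE and 4 Air samples above the line they were 0.32, 0.46, 0.21, 0.74 and 0.47 in the same order, all with the same sign. Erap1 was at 0.67 outside and 0.71 within those samples. Whether the estimates differ between these sets was not tested. Neither set gave a gene at an edgeR adjusted p under 0.05. At unadjusted p under 0.05 there were 636 of 12450 genes tested outside and 402 of 12416 within, and these counts were not compared by a test. Leaving out any 1 of the 18 samples kept the log2 fold change of H2-K1 in the range 0.76 to 0.95, of H2-D1 in 0.82 to 1.08, of B2m in 0.54 to 0.71 and of Tap1 in 0.94 to 1.21.

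Liver and blood transcripts were carried by partly different samples. Alb and Alas2 were both above 50 CPM in CIE mouse 23 and in Air mice 26, 29 and 38. Alb alone was above it in CIE mice 31, 33 and 35, and Alas2 alone in Air mouse 40. Alb ran at 79.8 to 160.0 CPM in the 7 samples above the line and 0.854 to 4.12 CPM in the other 11, and Alas2 at 129 to 272 CPM in 5 and 0.916 to 10.6 CPM in 13. There were no samples between these ranges. Alas2 was above the line in 1 of 10 CIE and 4 of 8 Air samples, so the erythroid split was not even between the groups, whereas Alb was above it in 4 of 10 and 3 of 8.

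The same mice were mostly above the line in other regions, though not always for the same gene. All 8 mice above the line in the amygdala were above it in the prefrontal cortex, and all 7 of them with a hypothalamus sample were above it there. Of the 10 mice below the line in the amygdala, 8 were below it in both other regions and 2, CIE mice 22 and 25, were above it in both. Air mouse 26 had 109.6 CPM of Alb in the amygdala and 1.95 CPM in prefrontal cortex, with Alas2 at 272 and 302 CPM. CIE mouse 35 had 5.04 CPM of Alas2 in the amygdala and 322 CPM in hypothalamus, with Alb at 160.0 and 99.9 CPM. When these transcripts entered the samples, at dissection, extraction or sequencing, was not tested.

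Genes that follow the split were described with both indicators and treatment in 1 edgeR fit of 13250 genes. Since the indicators were drawn from Alb and Alas2 levels, these counts describe the libraries and are not a test of treatment. The counts include Alb and Alas2 themselves. Genes near 0 below the line could pass the filter on low counts only through the samples above it, so their direction was set in advance. With Alb above the line, 120 genes had an adjusted p under 0.05 (0.906%), all higher, among them the plasma protein genes Ahsg, which ran at 35.6 to 122 CPM in 7 samples and 0 to 2.73 CPM in 11, and Fgb, at 15.5 to 52.3 and 0 to 0.916 CPM. Apoa1, the main apolipoprotein of high-density lipoprotein, followed them at 36.9 to 81.6 against 6.37 to 11.6 CPM. With Alas2 above the line, 60 genes had an adjusted p under 0.05 (0.453%), 55 higher and 5 lower, among them Ube2l6, a ubiquitin-conjugating enzyme for ISG15, and Slc4a1, the anion exchanger of red cells. Adh1, Cyp2e1 and Cat, enzymes that can oxidize ethanol and that liver expresses strongly, followed the Alb indicator, and no other member of the ethanol metabolism list was called for either. H2-Q10, a class I heavy chain gene outside the class I list that liver expresses, was called with Alb, at 15.0 to 35.3 CPM in 7 samples and 0 to 1.60 CPM in 11. None of the members of the class I list was called with either indicator. With Alb above the line the log2 difference was -0.29 for H2-D1 and 0.22 for Tap1, and with Alas2 above it 0.43 and -0.072, these 4 at adjusted p of 0.716 or more.

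Antiviral genes were among those that followed Alas2. Rsad2, which makes an antiviral nucleotide, was at 80.1 to 166 CPM in the 5 samples with Alas2 above the line and at 1.83 to 8.02 CPM in the other 13. Isg20, an exonuclease that degrades viral RNA, was at 47.0 to 156 and 0.917 to 5.92 CPM. With Alas2 above the line the log2 difference was 4.35 for Rsad2 and 4.75 for Isg20. Both genes were chosen after they were seen to follow Alas2, so these values are a description and not a test. Between CIE and Air the log2 fold change of Rsad2 was -2.11 ± 0.92 (SE) over all samples and 0.16 without the samples above the line. Isg20 is not on the interferon list, and Rsad2 was its only member called with either indicator.

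**Figure D3:**
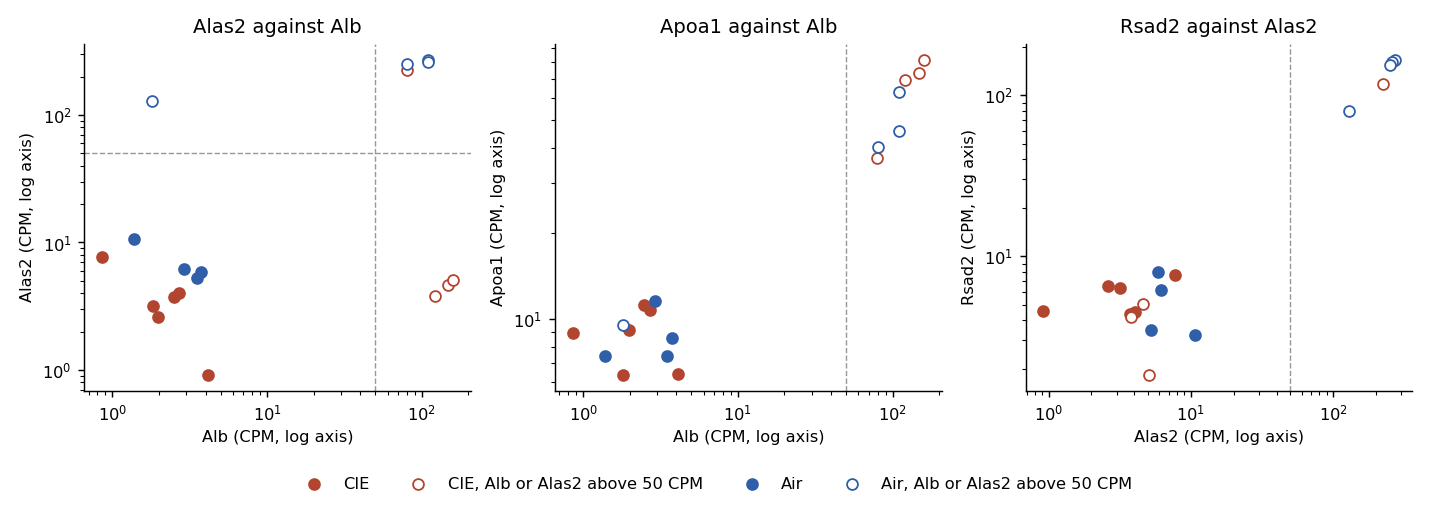
CPM of single genes in each of the 18 samples on log axes, CIE in red and Air in blue, open circles for samples with Alb or Alas2 above 50 CPM and dashed lines at 50 CPM. Alas2 and Alb are high together in 4 samples and singly in 4 others, Apoa1 is high where Alb is, and Rsad2 is high in the 5 samples where Alas2 is.

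Erythroid and liver lists differed in direction. All 5 tested erythroid markers had lower means in CIE, with a median log2 fold change of -1.23; Alas2 stood at -2.10 ± 1.04 (SE), Bpgm, which makes the hemoglobin ligand bisphosphoglycerate, at -1.23 ± 0.57 (SE), and the adult globin Hbb-bs at -1.24 ± 0.48 (SE). Without the samples above the line the list median was -0.061, and Fech, the last enzyme of heme synthesis, went from -0.85 to 0.054. Alas2 is on this list and helps define the line, and Fech follows it, so a move toward 0 was set in advance. The list summed to 441, 767 and 1678 CPM in Air and 433, 545 and 1364 CPM in CIE. Of the liver markers 5 of 24 were tested and 4 were higher, with a median of 0.45, but the most abundant of them was Ttr, which choroid plexus makes as well. The liver median was -0.25 with Alb and Alas2 as separate covariates and 0.17 without samples above 1000 CPM of Ttr. It was -0.24 among mice 21 to 30 and 1.77 among mice 31 to 40. The list summed to 256, 357 and 1939 CPM in Air and 250.2, 1119 and 8709 CPM in CIE. Neither neutrophil nor perivascular macrophage markers were tested, 0 of 12 and 0 of 11 passing the filter on low counts. Of 15 T and NK cell markers 1 was tested, Cd4, and of 9 B cell markers 2, with medians of -0.15 and 0.37. The B cell median was 1.44 outside and -0.31 within the samples above the line, -0.40 with no filter on low counts and -0.35 with DESeq2, the latter pair taking in more of the listed genes.

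Transcripts of oligodendrocytes, the cells that wrap axons in myelin, had lower means in CIE throughout the list. All 15 markers were lower, 5 of them at unadjusted p under 0.05 (33.3%, beside 4.21% of all genes), and the median log2 fold change was -0.26 against 0.0038 over all genes. The list summed to 4684, 5582 and 7909 CPM in Air and 3498, 4558 and 6609 CPM in CIE, and Mbp, myelin basic protein, was its most abundant gene. The groups overlapped over most of the range, with Air mouse 26 highest and CIE mouse 21 lowest. Aspa (ENSMUSG00000020774.9, chr11:73304992-73329596 on the minus strand), which cleaves N-acetylaspartate in oligodendrocytes, had lowest, median and highest values of 22.5, 29.8 and 43.7 CPM in Air and 15.3, 22.0 and 26.9 CPM in CIE. Every CIE sample was below the Air median and 5 were below every Air sample. Its log2 fold change was -0.44 ± 0.13 (SE) with p = 0.00207 unadjusted. Mobp, a structural myelin protein, was at -0.40 ± 0.14 (SE), Ermn, a cytoskeletal protein of myelinating cells, at -0.38 ± 0.15 (SE), and Myrf, the transcription factor that drives myelin genes, at -0.36 ± 0.15 (SE), with p of 0.00970, 0.0216 and 0.0220. Mbp itself was at -0.23 ± 0.14 (SE) with p = 0.111.

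Hapln2 and Olig2, which are outside the list, had lower means in CIE as well. Hapln2, a link protein of the matrix at nodes of Ranvier, had 16.0, 24.2 and 30.6 CPM in Air and 6.21, 16.3 and 24.9 CPM in CIE, and 9 of 10 CIE samples lay below the Air median. Hapln2 had a log2 fold change of -0.65 ± 0.20 (SE) with p = 0.00300. Olig2, the lineage factor of precursors and mature cells, stood at -0.23 ± 0.093 (SE), and the precursor list had 5 of 8 genes lower with a median of -0.12. The precursor median was -0.13 outside and -0.0075 within the samples with liver or blood transcripts. Without the 4 samples with Ttr above 1000 CPM it was -0.025. The myelin list median was -0.21 without and -0.25 within the samples with liver or blood transcripts. It was -0.15 among mice 21 to 30 and -0.45 among mice 31 to 40, and -0.12 without the 4 samples with Ttr above 1000 CPM.

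Markers of neighbouring tissue varied from sample to sample. Ttr, the transthyretin that choroid plexus secretes, ran over 2.26, 47.4 and 877 CPM in Air and 3.10, 354 and 8346 CPM in CIE. CIE mice 21, 31, 32 and 33 were above 1000 CPM and no Air sample was. The log2 fold change of Ttr was 3.57 ± 1.42 (SE) over all samples with an unadjusted edgeR p of 0.0232, and -0.023 without those 4. Since those 4 were picked by their Ttr level and all were CIE, this fall was set in advance. Kl, the klotho gene of choroid plexus, had 2.07, 4.93 and 13.9 CPM in Air and 4.10, 13.0 and 183 CPM in CIE, with a log2 fold change of 2.70 ± 0.84 (SE) and p = 0.00521. Sostdc1, a secreted antagonist of BMP and Wnt signals, stood at 1.45 ± 0.64 (SE). All 5 tested choroid plexus markers had higher means in CIE with a median of 1.45, and the list summed to 31.2, 93.3 and 987 CPM in Air and 45.3, 412 and 9217 CPM in CIE. The list median was 0.012 without the samples above 1000 CPM of Ttr, which is on the list. It was 1.35 among mice 21 to 30 and 2.74 among mice 31 to 40. Whether the amount of choroid plexus in a punch bears on other values was not tested.

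Hypothalamic peptides had lower means in CIE. Avp, vasopressin, had 1.60, 7.17 and 34.2 CPM in Air and 0.656, 3.12 and 9.54 CPM in CIE, with a log2 fold change of -1.53 ± 0.52 (SE) and p = 0.00888. Oxt, oxytocin, had 2.14, 8.34 and 48.8 CPM in Air and 0, 1.68 and 30.1 CPM in CIE, with -1.95 ± 0.78 (SE) and p = 0.0234. The highest values of Oxt were in the samples with both liver and blood transcripts, CIE mouse 23 and Air mice 26, 29 and 38. The hypothalamus list, 5 of 13 tested, had 4 lower and a median of -1.12 (with no filter on low counts -0.25, and with DESeq2 -0.12), and Pmch at a mean of 14.5 CPM was its most abundant gene. Striatal markers summed to 2061, 2686 and 5103 CPM in Air and 601, 2472 and 5501 CPM in CIE, and 10 of 12 were lower with a median of -0.14. This median changed sign between sets: it was 0.47 outside and -0.65 within the samples with liver or blood transcripts, 0.42 with Alb and Alas2 as separate covariates, 0.13 without samples above 1000 CPM of Ttr, 0.046 among mice 21 to 30 and -0.37 among mice 31 to 40. Basolateral amygdala and cortical excitatory markers had 8 of 9 tested genes higher, median 0.22, and central amygdala markers 3 of 9, median -0.033. The basolateral median was 0.16 outside and 0.53 within the samples with liver or blood transcripts and 0.024 without samples above 1000 CPM of Ttr. The central median was 0.21 outside and -0.17 within the former samples. Hippocampal and thalamic markers had medians of 0.13 and -0.11, with Spink8, a hippocampal protease inhibitor, at 0.88 ± 0.28 (SE) and p = 0.00529. The hippocampal median was 0.38 outside and -0.048 within the samples with liver or blood transcripts. Among mice 21 to 30 it was 0.55, and without samples above 1000 CPM of Ttr it was 0.056. The labels do not record the position of each punch, and its part in these differences was not tested.

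**Figure D4:**
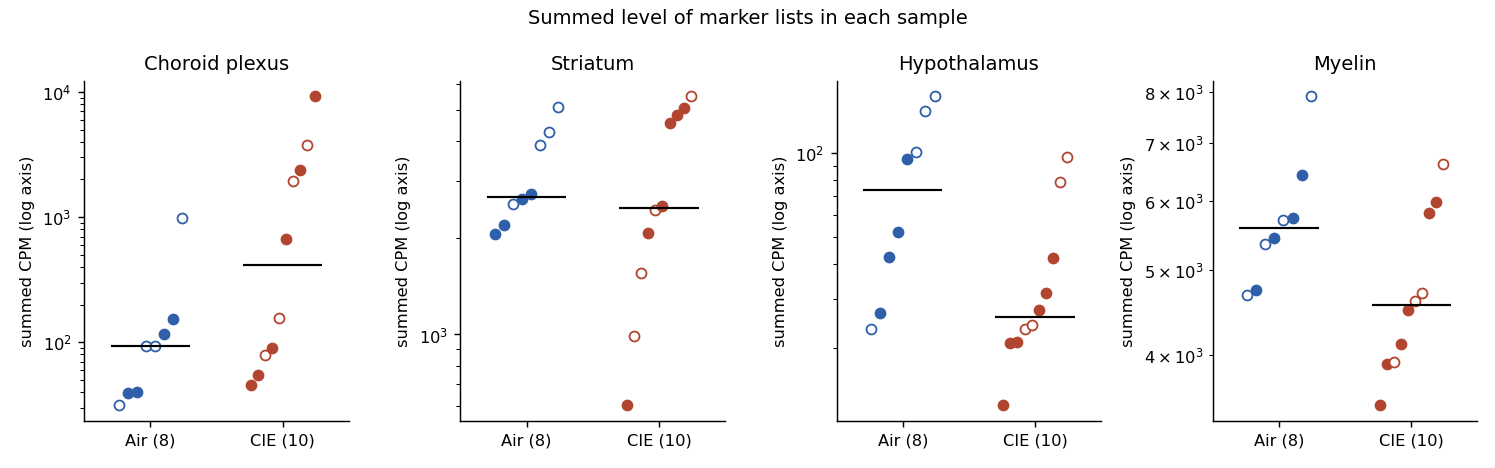
Summed CPM of the choroid plexus, striatum, hypothalamus and myelin marker lists in each sample on log axes, Air in blue and CIE in red, open circles for samples with Alb or Alas2 above 50 CPM and lines at the median. The groups overlap in every panel, and CIE holds both the lowest and the highest striatum sum.

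The class I values were also read without the 4 samples rich in Ttr. H2-D1 stood at 0.92, H2-K1 at 0.70, B2m at 0.56 and Gbp7 at 0.59 there, while Tap1 and Psmb8 did not pass the filter on low counts in that set. The median of the class I list was 0.058 there, against 0.14 over all samples. CIE mouse 21, the sample with the most choroid plexus RNA, was also the highest sample for H2-K1, B2m, Psmb8, Erap1 and Gbp7. Without it 416 of 12291 genes were at unadjusted edgeR p under 0.05, the lowest count of the sets with 1 sample left out.

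Microglial markers did not move together. Ctss, a lysosomal protease that processes antigen, was at 0.25 ± 0.087 (SE) and Siglech, a surface lectin of microglia, at 0.37 ± 0.14 (SE), while the fractalkine receptor Cx3cr1 was at -0.17 ± 0.065 (SE), with p of 0.00851, 0.0133 and 0.0149. For Cx3cr1, 8 of 10 CIE samples were below every Air sample. Of 13 microglial markers tested 8 were higher and 5 lower, median 0.053. Astrocyte markers had a median of -0.022, neuron markers of 0.016, endothelial markers of 0.058, and pericyte, muscle and meningeal markers of 0.037.

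Receptors and enzymes linked to ethanol differed in both directions, and none passed the test. Ethanol acts on GABA-A and glutamate receptors, and liver and brain oxidize it through acetaldehyde. Aldh7a1, an aldehyde dehydrogenase that clears lipid aldehydes, had 46.2, 52.2 and 55.4 CPM in Air and 45.2, 61.8 and 73.9 CPM in CIE. In 8 of 10 CIE samples it exceeded every Air sample and in 1 it was below all of them. The log2 fold change was 0.24 ± 0.078 (SE) with p = 0.00442. Aldh3a2, a fatty aldehyde dehydrogenase, was at 0.21 ± 0.094 (SE), whereas Aldh1a1, which makes retinoic acid, was at -0.59 ± 0.27 (SE). Of 11 tested genes of ethanol and aldehyde metabolism 9 were higher, with a median of 0.12. At unadjusted edgeR p under 0.05 there were 2 higher and 1 lower (27.3%, beside 4.21% of all genes).

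Transmitter systems had list medians near that of all genes. Of 24 tested GABA signaling genes 15 were lower, with a median of -0.015. Gria4, an AMPA receptor subunit, was at -0.12 ± 0.051 (SE), and Slc17a6, the vesicular glutamate transporter of subcortical neurons, at -0.60 ± 0.24 (SE), in a list of 37 with a median of 0.019. Among 25 genes of monoamine and acetylcholine receptors and of cannabinoid signaling, enzymes included, 15 were lower, with a median of -0.061, and 5 were at unadjusted p under 0.05 (20.0%, beside 4.21% of all genes). Among the 4 of smallest p, Htr3a, the ion channel receptor for serotonin, was at 0.74 ± 0.33 (SE) and Chrm1 at 0.16 ± 0.074 (SE), while Chrm2 and Chrm3 were at -0.24 ± 0.11 (SE) and -0.25 ± 0.12 (SE); the Chrm genes encode muscarinic receptors. Outside this list, Chrna2, a nicotinic receptor subunit found in sparse interneurons, had 3.62, 9.77 and 14.9 CPM in Air and 0.896, 4.27 and 7.88 CPM in CIE, and all CIE samples were below the Air median. Chrna2 had a log2 fold change of -1.03 ± 0.31 (SE) with p = 0.00271. The neuropeptide and the potassium and calcium channel lists had medians of -0.021 and -0.0037.

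Stress and metabolic lists gave a similar picture. Fosl2, an AP-1 factor induced by activity, was at 0.58 ± 0.18 (SE) with p = 0.00372, and the immediate early gene list that holds it had 8 of 23 higher and a median of -0.019. Plin4, a lipid droplet protein that glucocorticoids raise, had 3.24, 9.68 and 34.1 CPM in Air and 3.41, 6.34 and 11.1 CPM in CIE and a log2 fold change of -1.02 ± 0.36 (SE). Air mouse 39 was the highest sample. Mt2, a metallothionein, was at 0.25 ± 0.12 (SE), and the glucocorticoid list had a median of -0.00018. That median was 0.18 among mice 21 to 30 and -0.077 among mice 31 to 40. Chac1, a target of the unfolded protein response, was at 0.39 ± 0.14 (SE) in a heat shock list with a median of -0.012. Oxidative phosphorylation genes were higher in 54 of 68 (79.4%, beside 51.5% of all genes) with a median of 0.043. Uqcrb, a subunit of complex III, was at 0.26 ± 0.086 (SE). Cytosolic ribosomal protein genes were higher in 35 of 55 (63.6%), median 0.035. Clock and cholesterol synthesis genes had medians of -0.0036 and 0.023. The cholesterol median was -0.103 among mice 21 to 30, and it was 0.153 within and -0.0967 outside the samples with liver or blood transcripts.

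**Figure D5:**
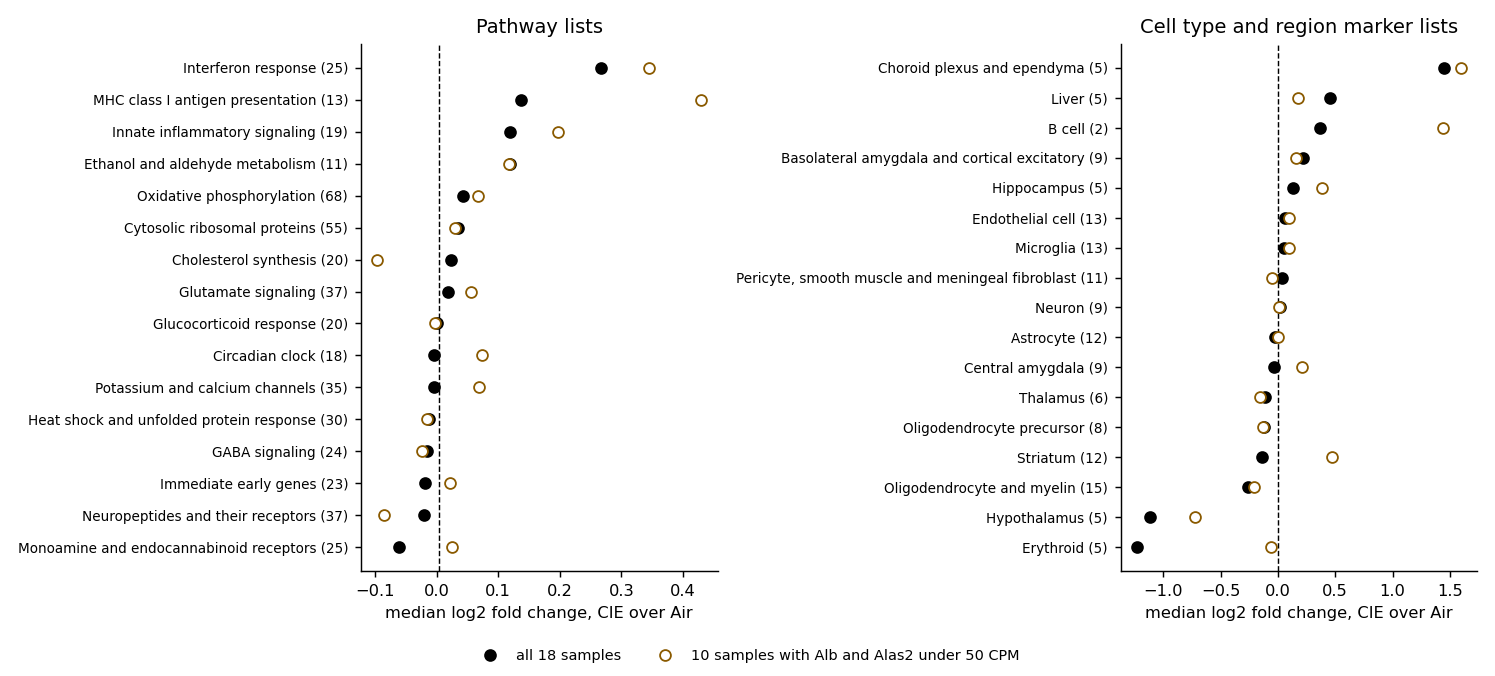
Median log2 fold change (CIE over Air) of the tested genes of each list, with the number tested in parentheses; black points use all 18 samples, open points the 10 samples with Alb and Alas2 under 50 CPM, and the dashed line is the median of all genes. Interferon and class I lists are the highest pathway lists. The erythroid median moves from -1.23 to near 0 without the samples above the line, which were chosen in part by Alas2 of that list.

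Among the remaining genes of smallest p, several had narrow ranges. Smpd1, acid sphingomyelinase, had 92.3, 110.0 and 118 CPM in Air and 114, 124 and 146 CPM in CIE, and 8 of 10 CIE samples exceeded every Air sample. Smpd1 had a log2 fold change of 0.21 ± 0.057 (SE) with p = 0.000890. Retsat, which saturates retinol, stood at 0.55 ± 0.15 (SE) with 7 CIE samples above every Air sample. Snhg9, a host transcript of a small nucleolar RNA, was at 0.70 ± 0.20 (SE), and Hdgfl2, a chromatin reader, at 0.24 ± 0.072 (SE). The end of Hdgfl2 overlaps that of Plin4 by 17 bases on the opposite strand.

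On the lower side, A330015K06Rik, an uncharacterized transcript, had the smallest p, with a log2 fold change of -0.61 ± 0.16 (SE) and p = 0.000742. Its exons overlap those of Kcnab1 on the opposite strand. Fbxo30, a ubiquitin ligase subunit, had 7.86, 11.0 and 13.1 CPM in Air and 4.55, 6.39 and 11.2 CPM in CIE, 7 CIE samples lying below every Air sample. Its log2 fold change was -0.62 ± 0.17 (SE) with p = 0.00148. Cpm, the gene of carboxypeptidase M, had 8 CIE samples below every Air sample and a log2 fold change of -0.47 ± 0.14 (SE). Gadd45a, a growth arrest gene induced by DNA damage, had 4.97, 10.3 and 17.1 CPM in Air and 4.03, 5.42 and 11.4 CPM in CIE. Its 3 highest Air samples and its highest CIE sample were those with both liver and blood transcripts, and the log2 fold change was -0.79 ± 0.24 (SE) over all samples and -0.60 without the samples above the line. Fgf1, a growth factor, was at -0.29 ± 0.087 (SE), Ptchd1, a membrane protein of the patched family, at -0.40 ± 0.12 (SE), and Haus8, of the augmin complex of microtubules, at -0.48 ± 0.15 (SE). Fam213b, a prostaglandin F synthase, was at -0.22 ± 0.069 (SE) and Hps3, which serves lysosome-related organelles, at -0.59 ± 0.18 (SE).

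The amygdala response was compared with that of male amygdala and of hypothalamus and prefrontal cortex of the same females. In none of these did a gene pass the edgeR test of CIE against Air at adjusted p under 0.05, with 1132 genes at unadjusted p under 0.05 of 12938 in male amygdala (8.75%), 690 of 12854 in hypothalamus (5.37%) and 471 of 12283 in prefrontal cortex (3.83%). In male amygdala all 18 samples had Alas2 above 50 CPM, and Alb was above it in 4, all of them CIE, so treatment and liver transcripts cannot be fully told apart there. In female hypothalamus both genes were above 50 CPM in 6 of 10 CIE and 4 of 8 Air samples. For female prefrontal cortex it was 5 of 10 CIE and 3 of 9 Air samples for Alb, and 1 of 10 and 3 of 9 for Alas2. H2-D1 had a log2 fold change of 0.33 ± 0.13 (SE) in male amygdala, 0.74 ± 0.14 in female hypothalamus and 0.73 ± 0.15 in prefrontal cortex. Its unadjusted edgeR p was 0.0198, 5.57e-05 and 5.31e-05 in that order, with adjusted p of 0.491, 0.179 and 0.652. H2-K1 had 0.40, 0.67 and 0.57 in that order. B2m had 0.31, 0.67 and 0.37, and its p of 1.03e-05 in hypothalamus gave an adjusted p of 0.0664. Tap1 had 0.54, 0.63 and 0.51. Values were smaller for Erap1, at 0.13, 0.17 and 0.21, for Gbp7, at 0.02, 0.054 and 0.26, and for Irf9, at 0.12, 0.22 and 0.038. Trim30a had 0.35, 0.29 and 0.0057, and Iigp1 had 0.85, 0.51 and 0.50. The female regions come from the same mice, so these values are not independent of those in the amygdala.

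The interaction terms asked whether the response differed. For sex, 0 of 13158 genes passed at an edgeR adjusted p under 0.05 (0%), with 547 unadjusted (4.16%), and DESeq2 gave 0 with 706 of 29939 unadjusted. For amygdala against hypothalamus it was 0 of 13337, with 593 unadjusted (4.45%) and 0 with 704 of 30797 by DESeq2. For amygdala against prefrontal cortex it was 0 of 13107, with 421 unadjusted (3.21%) and 0 with 571 of 30142 by DESeq2. The class I genes gave differences of 0.60 for H2-D1 between the sexes (p = 0.0245), and of 0.19 and 0.19 against the other regions. For B2m these were 0.32, -0.045 and 0.25. For Gbp7 the difference between the sexes was 0.57 with p = 0.00768 and an edgeR adjusted p of 1.00. Fosl2 had the smallest p of any term: its log2 fold change was 0.58 in the amygdala and -0.65 in prefrontal cortex, a difference of 1.23 with p = 1.29e-05 and an edgeR adjusted p of 0.169. Without a filter on low counts the adjusted p of Fosl2 was 0.0415, the only call among the alternatives of these terms. The smallest adjusted p of the prefrontal cortex term ranged from 0.0415 to 1.00 over its alternatives, and was 1.00 both with mouse as a replicate block and without the samples with Alb or Alas2 above 50 CPM. Further genes of smallest p were Lin52 (0.54) and Lamtor3 (-0.80) for sex, Ryr2 (0.42) and Lhx5 (-1.89) for hypothalamus, and Arl2 (-0.30) for prefrontal cortex, none past the test.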

How the data were processed

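TagSeq libraries were made by the authors from 300 ng of amygdala RNA per mouse and sequenced as 100-base single-end reads. Per the labels, the authors aligned reads with Bowtie2 to GRCm38 (mm10), handled them with SAMtools and counted them per gene with HTSeq, versions not stated. They then computed log2 values with limma 3.42.2. The deposited values of each sample are raw counts, in the unit count. The deposited voom tables hold log2 CPM, in the unit log2. The voom table of these samples holds 14728 genes and 4 summary lines that are not genes. Of 55385 gene identifiers, 54487 were matched to symbols with their version, 657 without it, and 241 were not matched.

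The 92 spike-in (ERCC) lines and the 5 summary lines (reads not assigned to a gene) were dropped. The summary lines held 28.9 to 31.0% of reads. CPM are plain counts scaled to the total on genes, without TMM factors. The comparison of 10 CIE with 8 Air samples used edgeR 4.0.16 in R 4.3.3 with TMM factors, filterByExpr (minimum count 10, minimum total 15), the robust quasi-likelihood test, and Benjamini-Hochberg adjustment over all genes tested at 0.05. Each SE beside a log2 fold change is its absolute value divided by the square root of the quasi-likelihood F statistic. It is therefore derived from the test and is not a spread over mice. DESeq2 1.42.0 and limma 3.58.1 were run as alternatives, and tables were made in Python 3.11.15. The pipeline was tested on simulated data. Differences from male amygdala and from other regions were tested as interaction terms. The mouse number in a title gave the animal, so samples of other female regions came from the same mice, and a mouse block was an alternative. Quality measures were compared with exact two-sided permutation tests over 43758 arrangements. Pairs within each group were checked for duplicates, and the lowest chi-square per degree of freedom among these 73 pairs was 1.50. Pairs across groups were not checked.

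Named genes were those past the test or, when fewer than 24 passed, the 12 of smallest p in each direction. Added to them were up to 4 tested members of smallest p in each gene list, the most abundant member of each marker list, label checks, and the gene of smallest p in each direction for each interaction. Some genes so chosen are not reported here. Rsad2, Isg20, Podxl2, H2-Q10, Ahsg, Fgb, Ube2l6, Slc4a1, Adh1, Cyp2e1 and Cat were chosen after their values were seen where they are named for following Alb or Alas2 or for an alternative fit. Members and lists were chosen with earlier results of these data known. Lists are described by counts and medians, without a test.

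Some limits apply. HTSeq's strand setting was not stated, so reads of genes that overlap on opposite strands cannot be told apart, and 26 of 63 genes examined share exon bases with another gene. Bulk counts do not separate cell number from RNA per cell. The labels do not state whether PCR copies were removed before counting, so counting error is a lower limit on the error of a value. Some genes of low count did not pass the filter and were not tested. Others near the filter could pass it mainly through the group where they were higher, which favors that direction. The labels name no library batch, and samples were divided by their measured Alb and Alas2 at 50 CPM.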

Additional observations from a re-analysis of the deposited data

Results flagged for a closer look

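In each group of 8 or 10 samples the highest and the lowest sample were compared with the rest, and a sample stood apart when its gap to the nearest other sample was large against the range of the group. Of 166 groups of values, 31 held such a sample. Chance sets a sample apart in about 1 in 20 groups, or 8.3 of 166. That figure holds for separate groups of normally distributed values. Plain CPM, such as those of Ttr, can run far higher in a few samples. The groups also share genes, such as Ttr alone and within list sums. Alas2 defines the split, and Rsad2 and Isg20 were chosen for following it. No test of 31 against 8.3 is therefore made. CIE mice 21 and 23 held 10 each, Air mouse 26 held 6, Air mice 38 and 39 held 2 each, and CIE mouse 33 held 1. No cause was tested.

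Air mouse 26 stood above the other Air samples with 8.23 CPM of Tap1, 59.5 CPM of H2-K1 and 125 CPM of B2m. It also stood above them with 877 CPM of Ttr, 987 CPM summed over choroid plexus markers and 1939 CPM summed over liver markers. Air mouse 39 stood above them with 22.7 CPM of Cpm and 89.6 CPM of Slc17a6. Air mouse 38 had the most reads on genes, 3375307, and the most genes with a count, 20507.

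CIE mouse 23 was the only CIE sample with Alas2 above 50 CPM, at 226 CPM. It stood above the other CIE samples with 449 CPM of Bpgm, 25.1 CPM of Hbb-bs, 193 CPM of Fech and 1364 CPM summed over erythroid markers. The antiviral genes Rsad2 and Isg20 were at 117 and 126 CPM in it. Gadd45a at 11.4 CPM, Oxt at 30.1 CPM and Aldh1a1 at 64.3 CPM also stood above the other CIE samples.

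CIE mouse 21 stood above the other CIE samples with 8346 CPM of Ttr, 183 CPM of Kl, 86.5 CPM of Sostdc1, 9217 CPM summed over choroid plexus markers and 8709 CPM summed over liver markers, among which Ttr is counted again. Spink8 at 43.5 CPM, Ezr at 123 CPM, Htr3a at 9.86 CPM and the interferon list at a sum of 871 CPM were likewise high in it, and Gria4 was low at 128 CPM. CIE mouse 33 had 2.94 CPM of the Y-linked gene Ddx3y, the highest level in these female samples.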

How the results depend on the processing

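The count of 0 genes at adjusted p under 0.05 held under other size factors, DESeq2, limma, other filters, covariates and with any 1 sample left out (range 0 to 0). The exception was the set of mice 21 to 30, with 1 gene, Podxl2 (log2 fold change -1.52, adjusted p 0.0107). The smallest adjusted p ranged from 0.115 (without CIE replicate 22) to 1 with 1 sample left out. The count at unadjusted p under 0.05, 519 of 12335, was 1225 of 27398 without a filter, where more genes were tested, and 858 of 13250 with Alb and Alas2 as separate covariates. It ran from 416 of 12291 (without CIE replicate 21) to 680 of 12311 (without CIE replicate 23) with 1 sample left out. The cause of the latter changes was not tested. The amygdala and prefrontal cortex interaction gave 1 gene, Fosl2, without a filter, while DESeq2 gave a smallest adjusted p of 0.0703. With mouse as a replicate block (paired), the hypothalamus term gave 0 genes (561 unadjusted) and the prefrontal cortex term 0 (536 unadjusted, smallest adjusted p 1.00). The sex term without Alb or Alas2 samples could not be run, since all 18 male amygdala samples were above the line.

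Of 2064 values of named genes, 2058 kept their direction. Reversed values were -0.023 for Ttr and -0.27 for Sostdc1 without samples above 1000 CPM of Ttr, 0.054 for Fech and 0.16 for Rsad2 without Alb or Alas2 samples, and for Apoa1 -0.95 among mice 21 to 30 and -0.12 with both covariates. Ttr sets its own line, and Fech and Rsad2 follow Alas2, so those moves were largely set by the choice of samples. The cause of the other reversals was not tested. Of 1121 list medians, 1103 moved by less than the spread between samples and 18, in 10 lists, moved by more. The class I median, 0.14, was 0.51 with DESeq2, 0.50 without a filter, 0.43 without Alb or Alas2 samples, 0.17 within them, 0.073 with a minimum count of 30 and 0.058 without samples above 1000 CPM of Ttr. The B cell median, 0.37, was -0.35 with DESeq2 and -0.40 without a filter, and the hypothalamus median, -1.12, was -0.12 and -0.25. Among mice 31 to 40 the choroid plexus median was 2.74 and the liver median 1.77. Among mice 21 to 30 the medians were 0.55 for hippocampus, 0.18 for glucocorticoid and -0.103 for cholesterol genes. The choroid plexus median was 0.012 without samples above 1000 CPM of Ttr, and the cholesterol median was 0.153 within the Alb or Alas2 samples. The sets defined by Ttr, by both covariates and by samples above the line alone were chosen after seeing the data.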

Other observations

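On the 500 most variable genes, the leading principal component held 37% of the variance and the next held 15.9%. Among genes with high loadings on one end were Ttr, Kl and Sostdc1, and on the other Scn4b, Alas2 and Rsad2. Spike-in RNA exceeded 1% of reads in CIE mice 31 and 34 and in Air mice 29 and 40, and was far lower in the other samples. All 18 male amygdala samples had Alas2 above 50 CPM, so the male comparison offers no samples below the line.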
